A study of Homo sapiens with 16 samples.

Results

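The 9q34 window is the stretch of human chromosome 9 from 130000000 to 141000000 (genome build hg19), near the end of its long arm. It was examined in peak lists from a study of RNA bound to PABPC1, which by the sample record include input RNA. Its members are all peaks, on both strands, whose midpoint lies in those 11 Mb. The 8 lists held 2399 such peaks of 175749 in all, and joining peaks that overlapped by at least 1 bp on the same strand gave 500 regions of 36802. The window was chosen by position and for its many peaks, so their number is a description and not a finding. A further 1250 regions lay on the rest of chromosome 9.

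The peaks come from RIP-seq, the sequencing of RNA pulled down with a protein, done in H1299, an established human lung carcinoma line. All cells stably expressed PABPC1 with a Myc tag, as wild type (WT) or as K512R, in which an arginine replaces a lysine. They were untreated or given 500 µM sodium arsenite (AS), whose duration the labels do not state. Of 16 samples, 8 had a peak list, and these lists form pairs A to D of 2 replicates each. The 8 samples without a list are those titled K512R. By the record no list is thus of K512R cells, while by name pairs C and D are. Pair A is WT without AS by both the sample record and the names of the lists, and its record adds immunoprecipitate (IP). Pair B is named WT with AS, while its record says input RNA of untreated WT cells. Pair C is named untreated K512R, while its record says IP of WT cells with AS. Pair D is named K512R with AS, while its record says input of WT cells with AS. The conflict touches 6 of the 8 lists and was not settled here, so each comparison is given with both readings. The labels do not say whether replicates were separate cultures, so their spread may be technical, nor whether the Myc lines are single clones or still make their own PABPC1.

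PABPC1 is the main cytoplasmic poly(A)-binding protein. It coats the poly(A) tail of mRNAs, protects them from decay and helps them to be translated, and it moves into stress granules when arsenite stalls translation. The band 9q34 is known for a dense row of genes, among them the kinase gene ABL1, the growth suppressor TSC1, the receptor gene NOTCH1 and the housekeeping genes of the surfeit cluster. The lists name no genes, and coordinates of genes on their build were not used here, so no region was assigned to a gene, and the density of genes was not analysed here.

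The number of regions per Mb was 45.5 in the window and 9.62 over the 130 Mb before it, 4.73 times as many. The window thus held 28.6% of the 1750 regions of chromosome 9. No region lay beyond its end. The last region before the window, at 129987518 to 129987682 on the plus strand, was in all 8 lists with scores of 19.65 to 320.15. The first inside it, at 130106514 to 130106574 on the plus strand, was in 1 list of C with a score of 13.11. The last region, at 140712512 to 140712590 on the plus strand, was also in 1 list of C, with a score of 16.52. Scores are the authors' own value per peak, their unit is not stated, and they are used here only to rank peaks within a list. Read depth is unknown, as the lists give no counts.

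Regions of the window were 8 to 4502 bp wide, with a median of 182 bp, against 170.5 bp on the rest of chromosome 9. Of the 500 regions, 256 were on the plus strand and 244 on the minus strand, and 56 (11.2%) were over 1000 bp, against 6.80% on the rest. Only 1 plus-strand region shared bases with a minus-strand one. In all 8 lists 147 regions (29.4%) had a peak, and 71 (14.2%) were in 1 list alone. The same shares on the rest of the chromosome were 30.8% and 18.5%. Regions lay close together, with a median gap of 4343 bp to the one before it on the same strand, against 8989 bp on the rest.

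The lists of B and D held fewer peaks in the window than those of A and C (AC below, and BD for the former), and a smaller part of their chromosome 9 peaks. The number was 332 and 352 in the lists of A, 378 and 394 in C, 238 and 244 in B, and 222 and 239 in D. The AC and BD ranges did not overlap. The mean was 364 ± 27.5 in AC and 235.75 ± 9.54 in BD (SD, n = 4 each), so BD had 0.648 times as many as AC. The same ratio was 0.850 on the rest of the chromosome and 0.883 over the series. All BD lists were also shorter as a whole, so the share of chromosome 9 peaks that lay in the window was compared. It was 30.8% and 31.9% in A, 31.9% and 31.4% in C, 26.7% and 26.3% in B, and 24.9% and 26.1% in D. Every BD list lay below every AC list, with means of 26.0% ± 0.783 and 31.5% ± 0.504 (SD, n = 4 each).

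**Figure D1:**
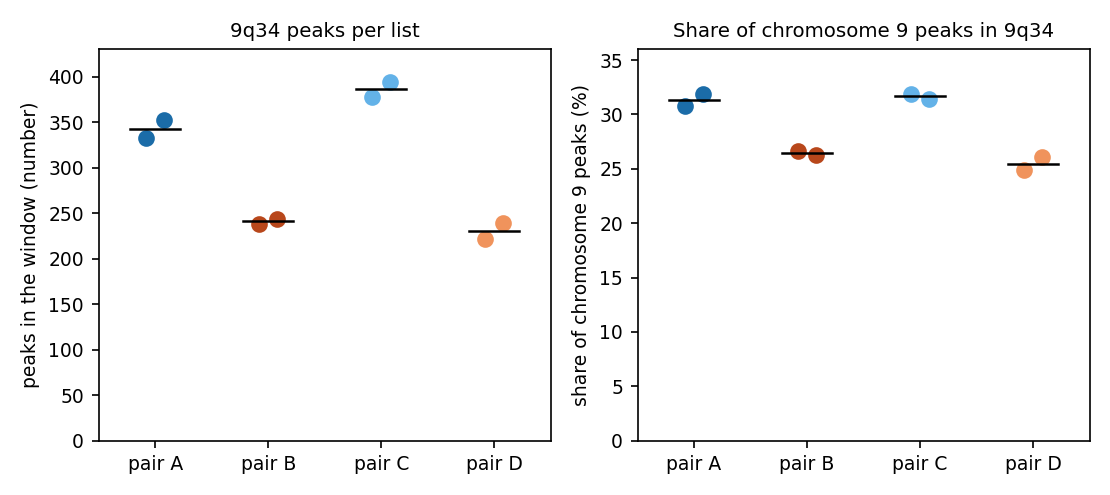
Number of peaks in the 9q34 window (left) and share of each list's chromosome 9 peaks that lie in it, in percent (right), for the lists of pairs A to D. Points are lists and lines are means of 2; the AC lists hold 332 to 394 peaks and those of BD 222 to 244.

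The exact 2-sided permutation test of this share gave p = 0.0286 for AC against BD, the smallest that 4 lists against 4 can give. Adjusted by Benjamini-Hochberg over 8 tests (4 measures, each for both ways of parting the lists), it was 0.0762 and did not pass 0.05. No adjusted value could have passed here, since a measure cannot reach the smallest p for both ways of parting. The test treats the 8 lists as independent, and with pairs as the units no exact test could pass. The window, taken for its many peaks, and its measures were chosen with earlier results of these data known. The p-values given here are thus descriptive only. For the other way of parting them, AB against CD, the mean share was 28.9% ± 2.85 and 28.6% ± 3.63 (SD, n = 4 each), and the exact permutation p was 0.800 (adjusted 0.914). Read by the names, AC against BD sets no treatment against AS, and read by the record IP against input. By the names AB against CD sets WT against K512R, and by the record no treatment against AS. The ratio of BD to AC peaks over whole chromosomes, given as a description, ran from 0.732 on chromosome 22 to 1.09 on X, and was 0.786 on chromosome 9. Chromosomes 17, 19, 16 and Y also lay below chromosome 9, at 0.758, 0.773, 0.779 and 0.783, and all others above it.

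The peaks in the window were wider in BD than in AC by the median, the reverse of the rest of the chromosome, but narrower by the mean. The median width was 196.5 and 193.5 bp in A, 189 and 188.5 bp in C, 212 and 219.5 bp in B, and 215.5 and 216 bp in D. On the rest of chromosome 9 it was 173 to 179 bp in AC and 166.5 to 168 bp in BD. The mean width in the window was 418 ± 7.85 bp in AC and 384 ± 14.0 bp in BD, with no overlap, and on the rest 350 ± 24.3 and 294 ± 5.80 bp (SD, n = 4 each). The median width in the window exceeded that on the rest by 14.9 ± 2.75 bp in AC and by 48.1 ± 2.50 bp in BD (SD, n = 4 each). This difference had p = 0.0286 in the exact permutation test (adjusted 0.0762), and all 4 BD lists lay above all of AC. For AB against CD the permutation p was 0.714 (adjusted 0.914, n = 4 each). Over the 147 regions in all 8 lists the widths lay closer together, with medians of 234 to 243 bp in AC and 230 to 243 bp in BD. These regions made up 61.1% to 66.2% of the window's peaks in BD and 37.3% to 44.3% in AC. The other peaks of the window had a median width of 177 to 184 bp in AC and 183 to 196 bp in BD.

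The share of peaks over 1000 bp did not follow the median. It was 10.2% and 11.1% in A, 10.6% and 10.9% in C, 10.1% and 6.97% in B, and 8.11% and 6.69% in D. In the window it exceeded that on the rest by 4.23 ± 0.869 percentage points in AC and by 3.57 ± 1.41 in BD (SD, n = 4 each), with an exact permutation p of 0.457 (adjusted 0.731). For AB against CD the excess was 4.59 ± 1.22 and 3.21 ± 0.513 points (permutation p = 0.114, adjusted 0.229, n = 4 each). The covered length in the window was 152 ± 13.5 kb in AC and 90.4 ± 4.68 kb in BD (SD, n = 4 each).

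Peaks of the window ranked higher by score than other chromosome 9 peaks in AC and about level with them in BD. Ranks are percentiles within the whole list, with 100 for the best score. The median percentile in the window was 58.9 and 60.2 in A, 59.5 and 59.0 in C, 48.8 and 49.0 in B, and 50.9 and 49.6 in D. It exceeded that on the rest by 10.5 ± 1.52 points in AC, while in BD the difference was -1.69 ± 1.67 points (SD, n = 4 each). The exact permutation p was 0.0286 for AC against BD (adjusted 0.0762), with no overlap of lists. It was 0.943 for AB against CD (adjusted 0.943, n = 4 each).

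**Figure D2:**
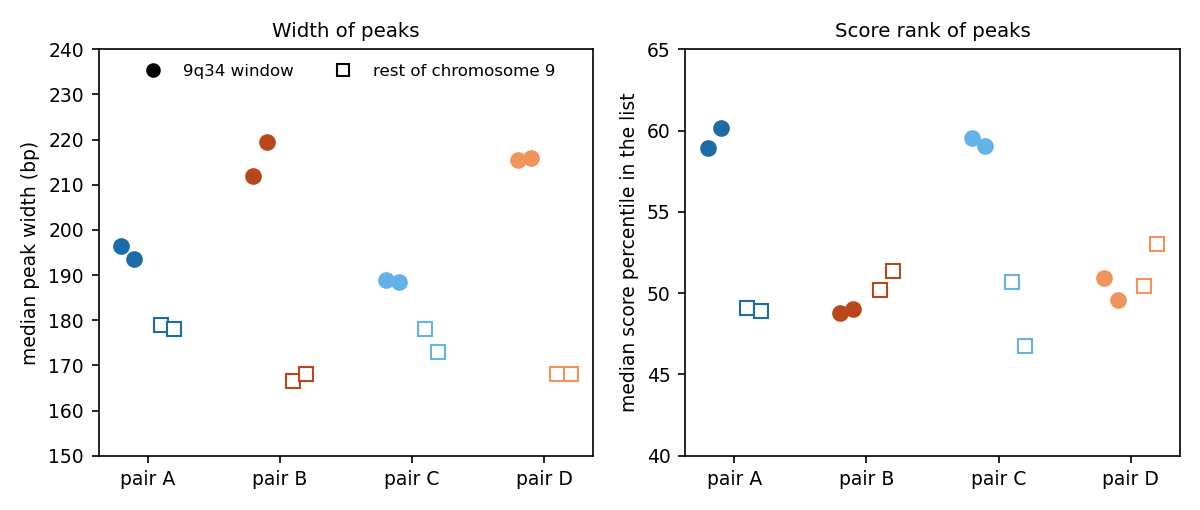
Median peak width in bp (left) and median score percentile within the list (right) of each list, in the 9q34 window (filled circles) and on the rest of chromosome 9 (open squares). In the window the BD lists lie above those of AC in width and below them in score rank; the vertical axes do not start at 0.

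Regions found in every list also ranked higher in the window than on the rest in AC, but in BD they ranked lower in each list. Over the 147 such regions of the window the median percentile was 76.2 and 77.1 in A, 79.1 and 80.9 in C, 59.8 and 62.1 in B, and 60.3 and 65.9 in D. Over the 385 such regions on the rest it was 71.3 to 71.9 in AC and 64.5 to 67.8 in BD. In 132 of the 147 (89.8%) the mean percentile of BD was below that of AC, with a median difference of -14.2 points. This was so for 68.6% of the 385 and for 62.1% of the 10872 regions in all lists of the series. All BD lists ranked below all AC lists in 77 of the 147 (52.4%), and above them in 4 (2.72%). On the rest these shares were 31.4% and 14.8%. These regions are held by the same 8 lists and are no replicates, so no test was made.

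The comparison of pair B with pair A sets, by the names, AS against no treatment in WT cells, and by the record input against IP of untreated WT cells. A region was called lost where both lists of A and neither of B had a peak, and gained in the reverse case. In the window 88 of the 299 regions held by both lists of A were lost (29.4%), where over the series 19.1% of such regions were and on the rest of chromosome 9 21.7%. Gained were 16 of the 200 held by both lists of B (8.0%), against 17.1% over the series and 18.8% on the rest. In all 4 lists were 172 regions. Losses thus exceeded gains by more in the window than elsewhere on the chromosome. Since 4 lists can be parted 2 and 2 in only 3 ways, no exact test could pass 0.05, and these counts carry no p-value. Without the first or the second list of B the gained regions were 27 and 28, since fewer lists then have to hold a peak, and with scores of 50 or more they were 9. These were 11.2%, 11.8% and 6.38% of those held, against 22.0%, 21.1% and 18.2% on the rest. Over the series the shares were 21.8%, 20.8% and 19.5%.

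Among lost regions the best in score stood at 139734774 to 139735639 on the plus strand, 866 bp wide. It had a score of 3100, which 8.17% to 11.0% of each list's peaks share and few exceed (up to 3233.06), in all AC lists, and no peak in any of BD. The next, at 131455917 to 131456087 on the plus strand, had a score of 3100 in all AC lists and in 1 list of D. The third was 109 bp wide, at 138837735 to 138837843 on the minus strand. It scored 3100 in both lists of A and 1984.51 and 2553.58 in D, and had no peak in B or C. The fourth, at 134452157 to 134455034 on the minus strand, was 2878 bp wide, with scores of 854.42 and 1517.75 in A, 1813.36 and 1988.24 in C, and no peak in B or D. Lost regions thus included some with scores of 3100, although their median percentile was 35.1, against 69.7 for the others held by both lists of A.

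Gained regions were few, and the first of them also scored 3100. It lay at 130925722 to 130926207 on the plus strand, 486 bp wide, and scored 3100 in all BD lists with no peak in A or C. The next, at 135545247 to 135545788 on the minus strand, scored 492.72 and 299.35 in B, 50.52 and 206.26 in C, and 529.49 and 282.60 in D. It overlapped by 367 bp a plus-strand region at 135545422 to 135545997 held by the lists of A and no others, with scores of 188.90 and 169.43. This was the single place in the window where regions of both strands shared bases, so peaks of A and those of B, C and D there differ in strand. No source used here says how the authors assigned strand. The other named gained regions were at 131445934 to 131446286 (plus strand, scores 203.89 and 137.93 in B) and 134738450 to 134738527 (minus strand, 345.06 and 118.27).

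The comparison of pair D with pair C sets, by the names, AS against no treatment in K512R cells and by the record it sets the input of AS-treated WT cells against their IP. Here 130 of the 342 regions held by both lists of C were lost (38.0%), against 25.3% over the series and 27.3% on the rest of the chromosome. Gained were 12 of 192 (6.25%), against 13.3% and 14.8%. In all 4 lists were 171 regions. Without the first or the second list of D, 23 and 22 regions were gained (9.66% and 9.95%). On the rest these shares were 18.8% and 18.4%, and over the series 18.0% and 17.3%.

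**Figure D3:**
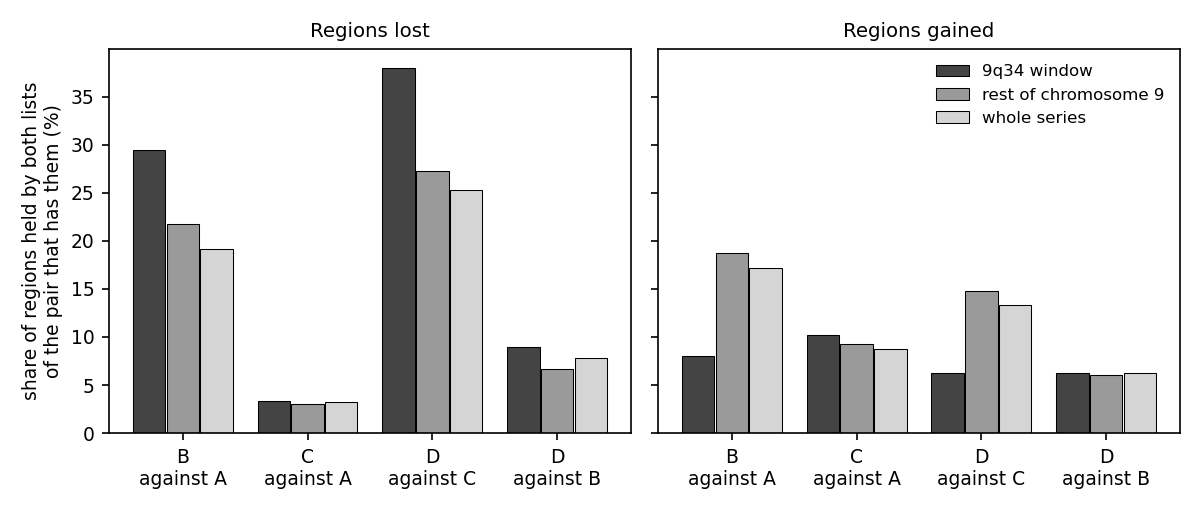
Share of regions lost (left) and gained (right) in each of 4 comparisons, in percent of the regions held by both lists of the pair that has them, for the 9q34 window, the rest of chromosome 9 and all regions of the series. In B against A and D against C the window shows more losses (29.4% and 38.0%) and fewer gains (8.0% and 6.25%) than either.

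The region at 139734774 was again the first of the lost ones. A pair of lost regions lay 1490 bp apart on the minus strand. The one at 134501309 to 134501809 scored 1994.28 and 2280.94 in A, 3202.98 and 3100 in C, and 28.08 and 58.74 in B. The one at 134503300 to 134503483 scored 2100.58 and 3004.72 in A, 3061.59 and 3100 in C, and 59.46 and 80.55 in B. Neither had a peak in D. Both were thus strong in AC, weak in B and absent from D.

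On the plus strand, a region at 137000790 to 137000964 was lost, with scores of 3100 in both lists of C and none in D, and one at 137001210 to 137001322 was gained, with 3100 in both lists of D. They lay 245 bp apart. In pair A the first replicate had only the former and the second only the latter, each with a score of 3100, so the replicates of A differed there in the same way as C and D. Other named gained regions were 130925722 once more, 138837735 and 137007071 to 137007160 (plus strand, 90 bp). The last of these was absent from C only, with scores of 1026.35 to 2806.24 in the other 6 lists.

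The B-to-A and D-to-C comparisons have no list in common. In the window 54 regions were lost in both, which is 61.4% of the 88 and 41.5% of the 130. The same shares were 55.9% and 39.8% on the rest, and 52.9% and 35.4% over the series. By definition the 54 regions are held by every AC list and no BD list. They were 10.8% of the 500 regions, against 5.09% over the series and 6.08% on the rest. Gained in both were 4 regions (0.800%), against 3.01% over the series and 4.08% on the rest. The ratio of such losses to such gains was thus 54 to 4 in the window and 76 to 51 on the rest.

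Of the 54 regions, 22 were on the plus and 32 on the minus strand, and 10 were over 1000 bp (18.5%, against 11.8% of such regions on the rest and 17.1% over the series). In 15 of the 54 the peak scored above the median of the list in all 4 lists, against 10 of 76 on the rest and 306 of 1875 over the series. The widest after the one at 134452157 was at 131570093 to 131572711 on the plus strand, 2619 bp, with scores of 581.80 and 841.78 in A and 631.13 and 331.63 in C. Next came 139006427 to 139008870 on the minus strand, 2444 bp, with scores of 564.82 and 617.50 in A and 1462.69 and 1407.85 in C. The other 7 were 1015 to 1757 bp wide. They started at 130647600, 134399183, 136271182, 139271995 and 139323067 on the minus strand and at 131122613 and 139252466 on the plus strand, and their scores ran from 18.42 to 881.57. In 7 of the 10 the peak had the same width in all 4 lists.

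The 4 regions only in BD were named after their values had been seen. Besides 130925722 they were at 131770254 to 131771070, 134814569 to 134814861 and 140317566 to 140317714, all on the minus strand. Their scores were 114.06 to 284.60, 13.51 to 69.89 and 19.42 to 151.10. None was over 1000 bp. Close to the one at 140317566, a plus-strand region at 140317847 to 140318044 was held by all AC lists and no BD list.

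Poorly scored regions were lost more often than strong ones, and within each of 4 classes of score percentile the lost share was higher in the window than on the rest. For B against A, 32 of 38 regions under the 25th percentile of A were lost in the window (84.2%) and 60 of 95 on the rest (63.2%). Above the 75th percentile 6 of 95 were lost in the window (6.32%) and 2 of 185 on the rest (1.08%). For D against C, 30 of 40 were lost at the low end (75%, against 63.9%) and 17 of 109 at the high end (15.6%, against 5.0%). The classes between gave 49.1% and 20.2% for B against A, where the rest had 31.3% and 10.4%. They gave 61.3% and 30.1% for D against C, where the rest had 38.3% and 17.1%. Over the series the 4 classes, from low to high, lost 47.4%, 27.4%, 10.9% and 2.89% for B against A. For D against C they lost 52.0%, 34.3%, 18.9% and 7.11%.

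**Figure D4:**
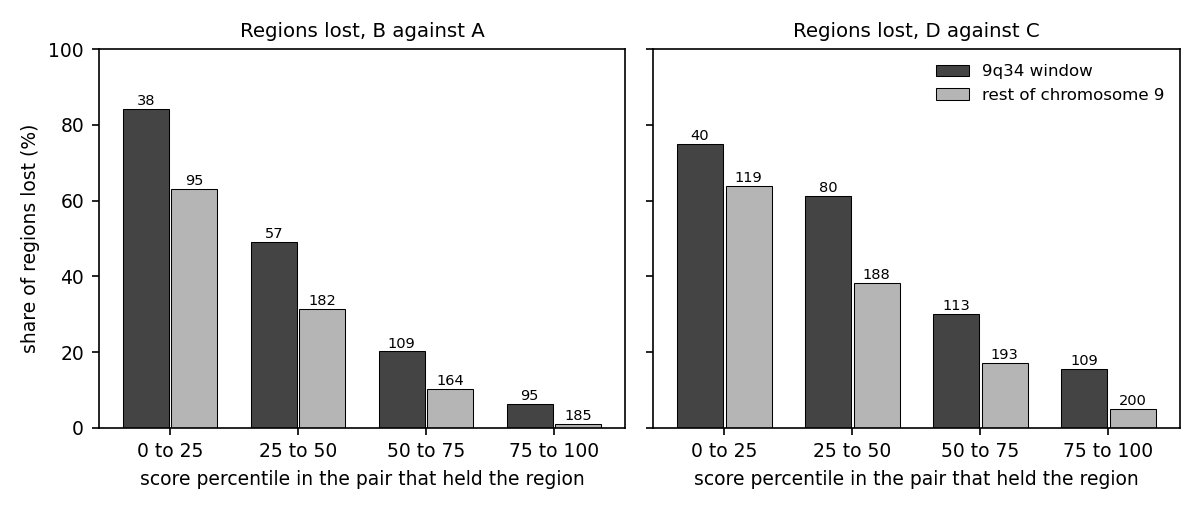
Share of regions lost in B against A (left) and D against C (right), in percent, by the mean score percentile in the pair that held them, for the 9q34 window (dark) and the rest of chromosome 9 (light). Numbers over the bars are regions held by both lists; the dark bar is the higher one in all 8 pairs of bars.

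Width went with loss less evenly. For B against A, loss took 13 of 32 wide regions of the window (over 1000 bp, 40.6%) and 75 of 267 narrower ones (28.1%). On the rest of the chromosome 30.6% and 21.2% were lost, and over the series 28.1% and 18.3%, so wide regions were lost more often there too. For D against C these were 15 of 40 (37.5%) and 115 of 302 (38.1%), while on the rest of the chromosome 50% of the wide and 25.4% of the narrow ones were lost, and over the series 36.9% and 24.2%. By strand, 27.1% of plus-strand and 31.3% of minus-strand regions were lost in B against A, where on the rest the order was the reverse, with 26.2% and 18.3%, and over the series they were 20% and 18.2%. In D against C the shares were 40.1% and 36.1% in the window, 29.2% and 25.9% on the rest, and 25.7% and 24.9% over the series. A region held by all 4 lists lay within 5000 bp on the same strand for 21 of the 88 regions lost in B against A (23.9%) and 25 of the 130 lost in D against C (19.2%), against 15.4% and 16.8% on the rest. Regions lay closer together in the window, with a median gap of 4343 bp against 8989 bp. The share was not taken for regions that were not lost, so a link with loss was not tested.

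The comparison of pair C with pair A sets, by the names, K512R against WT without AS and by the record AS against no treatment in WT IP. In the window 10 of 299 regions were lost (3.34%), against 3.23% over the series and 3.04% on the rest. Gained were 35 of 342 (10.2%), against 8.75% over the series and 9.29% on the rest. Both shares lay close to their background. With every list limited to the length of the shortest, 21 were gained, and with scores of 50 or more 23 were gained and 4 lost. Without 1 of the 4 lists the lost count was 17 to 23, which was 5.42% to 6.55% of those held. On the rest the share was then 6.55% to 9.59%, and over the series 6.70% to 8.08%. The count was 23 without the first and 18 without the second list of A, and 17 without the first and 19 without the second list of C. The gained count was 56 without the second list of A and 61 without the first list of C (16.4% and 15.5%). On the rest these shares were 14.4% and 17.0%, and over the series 15.3% and 16.1%.

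The best-scoring lost region was that at 138837735, followed by 137007071. The third, at 131872762 to 131873070 on the minus strand, scored 827.64 and 721.97 in A and 588.46 and 687.09 in D, and the fourth was that at 135545422. Gained regions scored lower. They were at 131873593 to 131873910 on the plus strand (315.51 and 223.96 in C), 131862145 to 131862245 on the minus strand (272.92 and 214.08), 131592024 to 131592100 on the minus strand (243.57 and 202.50) and 140652332 to 140652463 on the plus strand (181.93 and 142.70). The last of these had a peak in C alone. In the window 25 regions were in both lists of C and no other (5.0%), and 7 in both of A and no other (1.4%). On the rest these shares were 2.72% and 0.88%, and over the series 2.88% and 0.652%.

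The comparison of pair D with pair B sets, by the names, K512R against WT, both with AS, and by the record AS against no treatment in WT input. Lost were 18 of 200 regions (9.0%), against 7.86% over the series and 6.66% on the rest. Gained were 12 of 192 (6.25%), against 6.30% and 6.01%. These shares too lay near the background. The lost count was 44 without the first and 36 without the second list of B, 28 without the second list of D, and 11 with scores of 50 or more. The gained count was 21 and 20 without the first and the second list of B, and 35 and 27 without those of D.

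Among the lost regions, that at 137000790 came first. The second, at 131246980 to 131247312 on the plus strand, scored 274.78 and 309.88 in B, 645.87 and 832.36 in A, and 649.61 and 595.66 in C. The third was at 135906062 to 135906551 on the plus strand (162.95 and 257.27 in B), and the fourth was that at 134503300. Gained were 137001210, 138837735, 131871042 to 131871182 on the minus strand (65.16 and 51.23 in D) and 132980111 to 132980249 on the plus strand (45.70 and 66.17). No region of the window was in all AB lists and no CD list, and none showed the reverse. Such regions were rare throughout, with 18 and 24 of 36802 over the series (0.0489% and 0.0652%) and 0 of either kind on the rest.

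The fewer peaks of BD were spread along most of the window. In 8 of its 11 bins of 1 Mb every BD list held fewer peaks than every AC list. The deepest drop was in the bin from 136000000 to 137000000. It had 24 and 26 peaks in A, 31 and 29 in C, 11 and 12 in B, and 8 in each list of D, so the mean of BD was 0.355 times that of AC. In the bin that follows it, the lists of A, B and D held 10 peaks each and those of C 9 each. The bin from 131000000 to 132000000 had the most, with 90.25 ± 6.13 peaks in AC and 61.25 ± 3.3 in BD (SD, n = 4 each). The first bin of the window had 55.75 ± 1.26 and 51.75 ± 4.72, and its lists overlapped. From 134000000 to 137000000 the ratio of BD to AC was 0.495, 0.531 and 0.355 by bin, and over the last 2 bins 0.540 and 0.532.

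**Figure D5:**
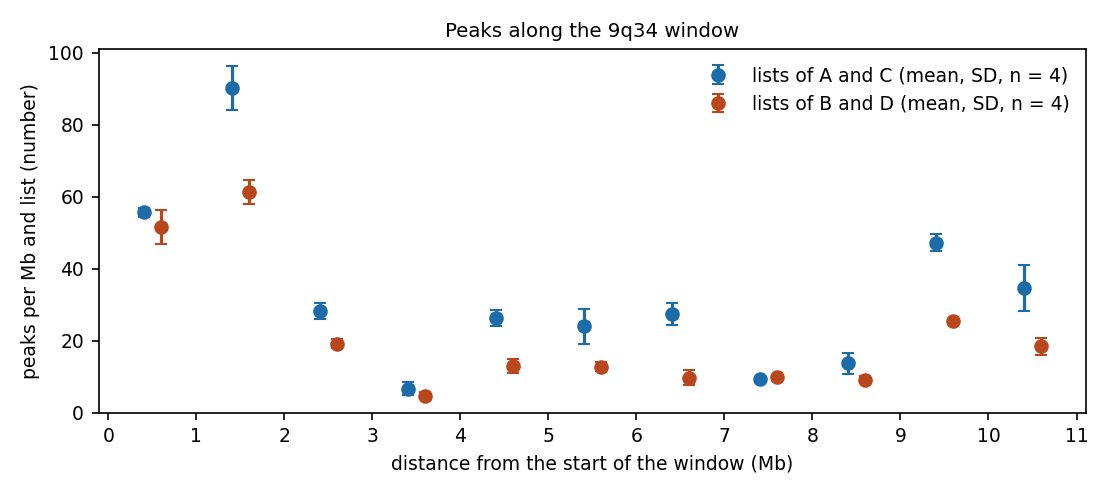
Peaks per list in bins of 1 Mb along the 9q34 window, by distance from its start in Mb; points are means and bars SDs of the 4 AC lists (blue) or the 4 BD lists (orange). The sets lie apart in 8 of 11 bins, and overlap in the bins that begin at 0, 3 and 7 Mb.

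Regions within 5000 bp of each other on the same strand were joined into 236 stretches, and 31.6% of the window's regions lay in stretches of 5 or more, against 13.5% on the rest. The longest row was on the plus strand at 130413882 to 130444839, with 16 regions. Of these, the lists of A had 16 and 14, those of C 15 and 14, those of B 14 and 15, and those of D 11 and 13. The next, on the minus strand at 134452157 to 134477536, had 11 regions. All 11 had a peak in each AC list, but 4 and 3 did in B and 5 and 2 in D, and it begins with the wide lost region described above. The third, on the minus strand at 131857073 to 131873070, had 10 regions, of which every list held 7 or 8. Of the 16, 11 and 10 regions in these rows, 11, 1 and 5 had a peak in all 8 lists.

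The widest regions were not the most stable. The widest, at 138376238 to 138380739 on the plus strand (4502 bp), had a peak in both lists of C alone, with scores of 148.13 and 79.33. The second, at 132995269 to 132999442 on the plus strand, was in 7 lists, with widths of 3631 to 4174 bp in AC and 2114 to 3680 bp in BD. The third, at 132396883 to 132400736 on the minus strand, was in 5 lists, and the fourth, at 133759356 to 133763062 on the plus strand, in 1 list of A with a score of 41.73. The fifth, at 131151070 to 131154295 on the plus strand, was in all 8 lists with scores of 298.61 to 2277.44.

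In all 8 lists 17 of the 500 regions of the window scored 3100 or more, against 21 of the 1250 on the rest. The first of the window's 17 by rank was at 130639902 to 130640022 on the minus strand, and its peak was 121 bp wide in every list. The others named were at 138395388 to 138396519 and 139743268 to 139744048 on the plus strand and at 139834885 to 139835623 and 130940988 to 130941694 on the minus strand. These are tied, and the wider came first. Where each of 2 lists had 1 peak in a region, start and end were the same in 81.7% to 86.0% of regions for B against A, 84.1% to 85.4% for C against A, 77.6% to 82.4% for D against C and 77.1% to 82.2% for D against B. Replicates shared regions of the window with a mean Jaccard index (shared over all regions of either list) of 0.752, lists within AC or within BD with 0.689, and lists across these sets with 0.510. On the rest of the chromosome the means were 0.747, 0.695 and 0.531.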

How the data were processed

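The authors deposited a list of peaks per sample, with start, end, strand and a score whose unit is not stated. Peak names begin with MACS, a peak caller, per the deposited lists; no source used here gives its settings or control. The submitters' processing notes name cutadapt 1.9.3, HISAT2 2.0.4 and hg19. A count per peak is not part of the lists, so depth is unknown. Coordinates are hg19, counted from 1.

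Pairs A to D follow the sample titles. A peak or region belongs to the window by its midpoint. Score percentiles are ranks within the whole list, and a region takes its best peak. Regions over all chromosomes were built before the window's were taken. The regions named are, by rule, the 4 best-scoring lost and gained ones per comparison (ties by width), the 5 widest, the 5 best in all lists, those over 1000 bp that part A and C from B and D, the 3 longest stretches and those at the edges. The window, its measures and rules were chosen with earlier results of these data known. No cell markers or gene lists apply. No genome of the build was used here, so no sequence is shown. The code was tested on simulated data. Tests used scipy 1.17.1 and numpy 2.4.6, tables pandas 2.3.3 and figures matplotlib 3.10.9, under Python 3.11.15.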

Additional observations from a re-analysis of the deposited data

How the results depend on the processing

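The differences of B and D from A and C in share, median width and score percentile kept their direction under every alternative tried. None of these differences passed 0.05 after adjustment, which the number of lists did not allow. Without 1 list they were -5.77 to -5.17 percentage points, 31.96 to 34.1 bp and -12.96 to -11.65 points, against -5.54, 33.25 bp and -12.2 as deposited, and the share over 1000 bp differed by -1.35 to -0.322 points. With scores of 50 or more they were -8.60 points, 53 bp and -6.74 points, the last with overlapping lists (exact permutation p = 0.0571, adjusted 0.114, n = 4 each), and the share over 1000 bp differed by -2.25 points (-0.659 as deposited), with a permutation p of 0.0286 (adjusted 0.0762). With the window's start moved, the width difference was 58.25 bp. Of A and B against C and D, the share in the window turned from -0.327 to 0.00927 with lists of equal length and to 0.183 with the window's start moved 1 Mb inwards. Without 1 list this factor's differences ranged from -1.44 to 0.914 (share), -7.83 to 4.50 bp (width), -1.96 to -1.03 (over 1000 bp) and -2.37 to 2.87 (percentile). With a peak in 1 of 2 lists as presence, lost and gained counts were 144 and 39 for B against A, 31 and 77 for C against A, 196 and 33 for D against C, and 62 and 50 for D against B. The shares lost, in that order, were 37.5%, 8.07%, 45.6% and 22.2%, against 33.9%, 12.4%, 37.6% and 15.5% on the rest. Over the series they were 29.4%, 11.2%, 34.1% and 17.2%. The shares gained were 14.0%, 17.9%, 12.4% and 18.7%, against 23.8%, 21.0%, 21.4% and 16.9% on the rest. Over the series the shares gained were 24.4%, 20.1%, 20.9% and 16.4%. With scores of 50 or more, B against A had 9 gained, C against A 4 lost and 23 gained, and D against B 11 lost. At equal list lengths 21 were gained in C against A. Without 1 list of a comparison, lost and gained were 106 to 125 and 22 to 28 (B against A), 17 to 23 and 48 to 61 (C against A), 145 to 169 and 16 to 23 (D against C), and 27 to 44 and 20 to 35 (D against B). Fewer lists, or a looser rule, raise these counts by construction. Without 1 list, the share lost for B against A and D against C was always above that on the rest and over the series. The share gained in these comparisons was always below both. For C against A the share lost was always below both. The other shares were not always on the same side of both. The other alternatives, strand ignored and 50% overlap included, kept counts within 1.5 times.

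Replicate numbers were shared across pairs, but deviations of same-numbered lists correlated at 0.0885 to 0.131, over 0.1 in 3 of 6 pairs, so pairing was not established. All 6 correlations were positive, so each list correlated best with its own number, a hint from the data and not the design. In the replicate block, the differences of B and D from A and C in share (-5.54), width (33.25 bp) and percentile (-12.2) each had an exact permutation p of 0.125, the smallest it can give.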
